A study of Arabidopsis thaliana with 12 samples.

Results

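The genes described here are OTP70 (AT4G25270), AT4G04370 and PAC (AT2G48120, PALE CRESS), 3 nuclear genes of Arabidopsis thaliana tied to RNA processing in chloroplasts or mitochondria. They were taken as every feature of the array that the platform annotation gives to exactly 1 gene, that gene being one of the 3. Each had 1 such feature (1815 for OTP70, 2345 for AT4G04370 and 2725 for PAC), so they make up 3 of the 692 features with 1 gene and of the 3439 features in all. Features with several genes held none of them. The genes were picked with their difference between recovering and light-adapted plants already known. That difference is therefore a description of the 3 genes, given without p-values, and nothing is read from its place past a threshold.

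Chloroplasts and mitochondria keep small genomes of their own, but their transcripts are cut, spliced, edited and protected by proteins made in the cytosol from nuclear genes. The largest group of these are the pentatricopeptide repeat (PPR) proteins, whose tandem repeats bind RNA in a sequence-specific way. OTP70 is a PPR protein needed for splicing of the plastid rpoC1 transcript, which encodes a subunit of the plastid's own RNA polymerase. AT4G04370 encodes a PPR protein as well, and no function is given for it here. PAC is a plastid protein without which seedlings stay pale and chloroplasts do not mature, and it has been linked to the maturation of plastid transcripts and to plastid translation.

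Total RNA of wild-type plants of the Columbia 0 ecotype was hybridised to 12 arrays. Of these, 6 came from plants allowed to recover in light after 1 h in the dark (called recovery) and 6 from light-adapted plants. The length of the recovery is 2 h in the sample titles but 1 h in the source names. All plants carried the same genotype, no sample from the end of the dark period was analysed here, and no tissue, age or pooling is stated. Nothing says whether arrays of a group came from separate plants, so errors and p-values cover the spread between these arrays, which may be technical. In whole-plant or whole-organ RNA, fewer cells of a type and less RNA per cell cannot be told apart. Of 8 markers of green leaf, 3 had a feature of their own. The antenna gene LHB1B2 read between 14.3 and 37.8 on recovery arrays and between 27.5 and 48.7 on light-adapted arrays, with the lower range in recovery. The photosystem I gene PSAN read between 4.44 and 9.95 on recovery arrays and between 4.98 and 7.36 on light-adapted arrays, and the photosystem II gene PSBY between 2.60 and 4.46 in recovery and between 2.01 and 3.51 in light-adapted plants. The groups overlapped for all 3. Markers of root, flower and seed had no feature of their own, so their part was not tested.

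The values are intensities without a stated unit, from 0 to a ceiling of 100. The highest value was 100 on every array, and whether the arrays were scaled to this value or cut off at it is not stated. The middle of the scale differed between the groups. Median intensity was 0.0373 ± 0.00148 on recovery arrays and 0.0919 ± 0.0145 on light-adapted arrays (SD, n = 6 each, two-sided exact permutation p = 0.00216, the smallest the 924 splits allow). Summed intensity was 2722 ± 465 on recovery and 2703 ± 439 on light-adapted arrays (exact permutation p = 0.814). The permutation tests here and below took all arrays as separate and did not pair them by number. Arrays 1 and 2, 3 and 4, and 5 and 6 resembled each other in summed intensity. The SDs of the sums thus hold the spread between these sets, and the p-values may count repeat readings as separate arrays. Because the medians differed, each gene is given on the deposited scale and on a quantile-normalized log2 scale, which forces the arrays to a common distribution. Over the 2364 features measured above 0 on at least 4 arrays of each group, the median log2 difference, recovery minus light adapted, was -0.82 as deposited and -0.038 after normalization.

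OTP70 and AT4G04370 were higher in recovering plants and PAC was lower, in all 6 same-numbered pairs of arrays and on both scales. After normalization, OTP70 differed by 1.84 ± 0.201 and AT4G04370 by 2.53 ± 0.379 on the log2 scale, and PAC by -1.18 ± 0.204 (SE, n = 6 each). As deposited, the log2 differences were 1.13, 1.70 and -1.71 in the same order. In linear terms the normalized differences are a 3.57-fold and a 5.78-fold higher and a 2.26-fold lower level in recovery. After normalization all 3 features lay past an adjusted p of 0.05 in limma, as did 36.9% of the features tested (18.5% higher and 18.4% lower in recovery). As deposited they did so too, as did 46.4% of the features (9.56% higher and 36.8% lower), and likewise after median centring, with 40.8% (26.2% higher and 14.6% lower). They did so as well with same-numbered arrays as a block, against 35.2% of the features, and with means of arrays 1 and 2, 3 and 4, and 5 and 6, against 17.1%. Since the genes were picked on this contrast, nothing is read from these counts. On the deposited scale the groups did not overlap for any of the 3 genes, which held for 27.9% of the features tested, and the same held after normalization, against 26.4%.

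**Figure D1:**
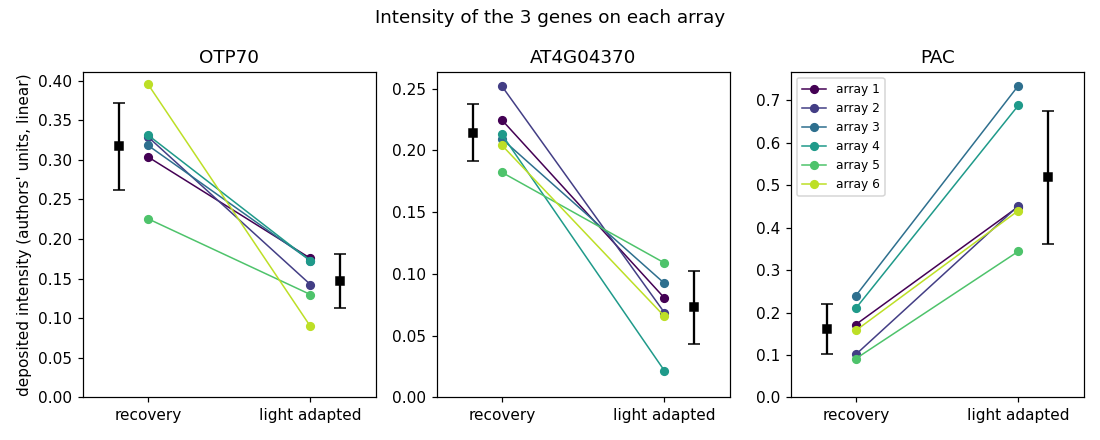
Deposited intensity (linear, in the authors' units) of OTP70, AT4G04370 and PAC on the 6 recovery arrays (left) and the 6 light-adapted arrays (right); lines join arrays of the same number, and squares with bars are the mean and SD. OTP70 and AT4G04370 are higher on every recovery array than on any light-adapted array, and PAC is lower.

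The intensity of OTP70, the rpoC1 splicing factor, ran from 0.226 to 0.396 on recovery arrays with a median of 0.324, and from 0.0896 to 0.176 on light-adapted arrays with a median of 0.157. The means were 0.317 ± 0.0549 in recovery and 0.147 ± 0.0339 in light-adapted plants (SD, n = 6 each). The highest recovery array and the lowest light-adapted array carried the same number, 6, and the lowest recovery array was number 5. Without normalization the difference was 1.13 ± 0.234 (SE) on the log2 scale, and with it the difference in pairs 1 to 6 was 1.59, 2.06, 1.53, 1.56, 1.498 and 2.78. Pair 6 thus stood above the other pairs, at a ratio of recovery to light adapted of 4.42 on the deposited scale, where the other 5 pairs lay between 1.73 and 2.31. Without recovery array 6 the normalized difference was 1.72, and without light-adapted array 6 it was 1.76.

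The intensity of AT4G04370, the other PPR gene, ran from 0.182 to 0.252 on recovery arrays with a median of 0.211, and from 0.0216 to 0.109 on light-adapted arrays with a median of 0.0746. The means were 0.214 ± 0.0232 in recovery and 0.0729 ± 0.0298 in light-adapted plants (SD, n = 6 each). The recovery arrays lay close together, with a coefficient of variation of 10.8%, against 40.9% on the light-adapted arrays, where array 4 was the lowest. The normalized log2 difference in pairs 1 to 6 was 2.53, 2.90, 1.86, 3.96, 1.53 and 2.39. The largest was that of pair 4, whose light-adapted array read 0.0216, and the difference over the arrays was 2.198 without that array. As deposited, the difference was 1.70 ± 0.349 (SE). The light-adapted level is near the low end of the scale, and the SE of this difference was the largest of the 3.

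The intensity of PAC ran from 0.0913 to 0.240 on recovery arrays with a median of 0.165, and from 0.344 to 0.735 on light-adapted arrays with a median of 0.451. The means were 0.162 ± 0.0585 in recovery and 0.518 ± 0.156 in light-adapted plants (SD, n = 6 each). Arrays 3 and 4 were the highest in both groups, at 0.240 and 0.210 in recovery and at 0.735 and 0.688 in light-adapted plants. Those 4 arrays also had the highest summed intensities, 3233 to 3314, against 2286 to 2593 on the other 8 arrays, and the part of this in the levels of PAC was not tested. Within pairs the ratio of recovery to light adapted lay between 0.224 and 0.382 as deposited. The normalized log2 difference in pairs 1 to 6 was -0.91, -1.54, -1.19, -1.23, -1.24 and -0.95. The size of the PAC difference depended on the scaling, at -1.71 ± 0.303 (SE) as deposited and of -0.78 ± 0.234 when each array was centred on its median.

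**Figure D2:**
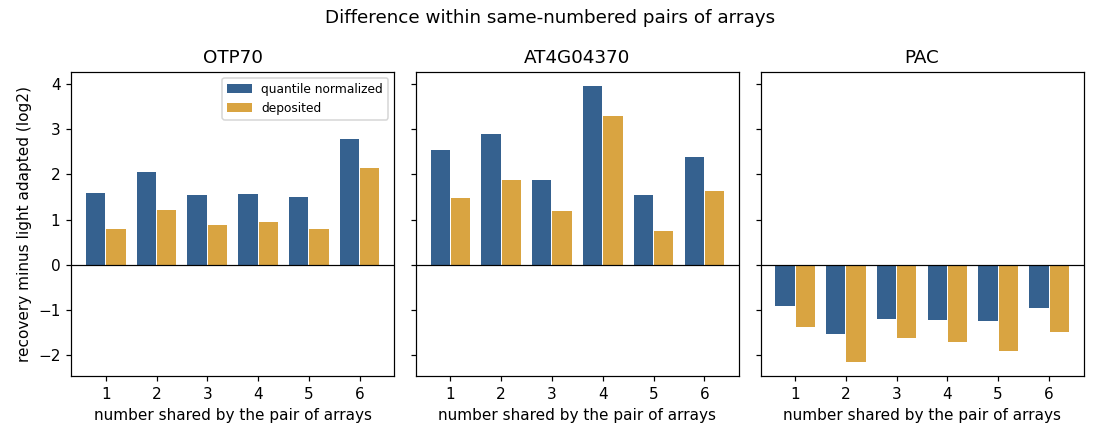
Log2 difference, recovery minus light adapted, within each of the 6 same-numbered pairs of arrays, after quantile normalization (blue) and as deposited (yellow). OTP70 and AT4G04370 are above 0 and PAC below 0 in every pair; normalization raises the PPR genes and brings PAC nearer to 0.

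A measure that no scaling of a whole array can move is the place of a feature among the 3439 on its array. It reflects the probe as well as the transcript, so only its shift between groups is read here. Features at 0 made up 25.6% ± 2.21 on recovery arrays and 20.0% ± 1.70 on light-adapted arrays (SD, n = 6 each, exact permutation p = 0.00216). The part of this in the places was not tested. OTP70 stood above 83.8% ± 1.95 of the features on recovery arrays and above 61.1% ± 3.93 on light-adapted arrays (SD, n = 6 each). AT4G04370 stood above 79.9% ± 1.59 of them in recovery and above 44.2% ± 11.1 in light-adapted plants. For PAC it was 75.7% ± 4.10 in recovery and 85.0% ± 1.70 in light-adapted plants. The shift was upward in 6 of 6 pairs for each PPR gene, by 17.4 to 32.7 percentage points for OTP70 and by 19.5 to 51.4 for AT4G04370. PAC moved down in 6 of 6 pairs, and its shift lay between -13.3 and -6.22 points. The places of OTP70, AT4G04370 and PAC come from the same values on which these genes were picked. The direction of their shifts therefore adds no support. How many of the 3439 features shifted one way in 6 of 6 pairs was not counted.

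**Figure D3:**
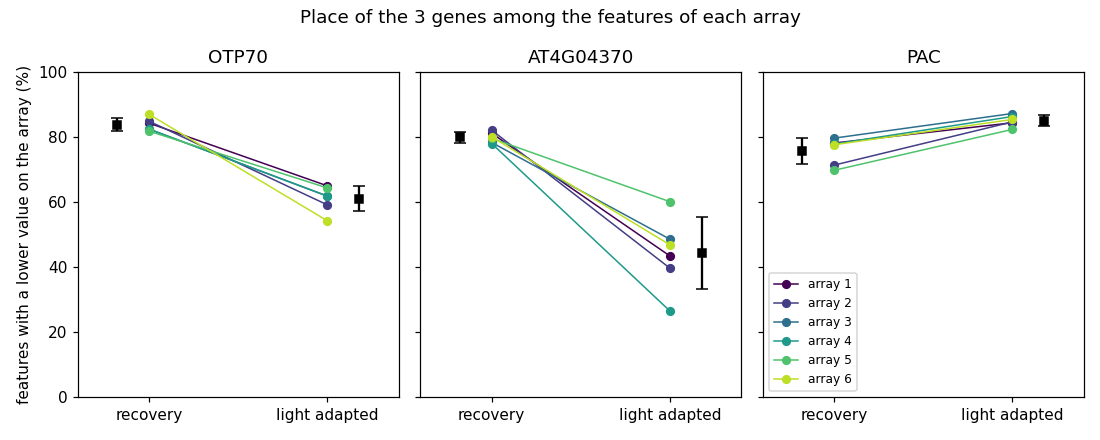
Share of the 3439 features with a lower value on the same array (percent) for OTP70, AT4G04370 and PAC, on recovery arrays (left) and light-adapted arrays (right), with lines between arrays of the same number and squares with bars for the mean and SD. AT4G04370 shifts most, with a mean place of 79.9% in recovery and 44.2% in light-adapted plants.

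The change of one gene against another within arrays is free of any common factor of the array. Against PAC it is the difference of values already given, so its direction was fixed by them and adds no support. The log2 ratio of OTP70 to PAC was higher in recovery by 2.84 ± 0.547 (SD, n = 6 pairs), between 2.18 and 3.62. That of AT4G04370 to PAC was higher by 3.42 ± 0.927, between 2.66 and 5.02. Between the PPR genes no steady direction was seen. The log2 ratio of OTP70 to AT4G04370 changed by -0.58 ± 0.985, less than its SD, and was higher in recovery in 2 of 6 pairs.

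The pairs of arrays 1 and 2, 3 and 4, and 5 and 6 resembled each other in summed intensity, a grouping seen in the values and not given by the labels. Averaged over arrays 1 and 2, over 3 and 4 and over 5 and 6, the deposited ratio of recovery to light adapted was 1.99, 1.88 and 2.83 for OTP70. It was 3.20, 3.71 and 2.21 for AT4G04370 and 0.303, 0.316 and 0.317 for PAC. Averaged in this way, the ratio of PAC was nearly the same in the 3 pairs of arrays although its level was not. In single same-numbered pairs it lay between 0.224 and 0.382.

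Replicate spread differed among the genes. The SD within groups, pooled over both, was 0.276 for OTP70 and 0.284 for PAC on the normalized log2 scale, and 0.672 for AT4G04370. The median over the features tested was 0.765, and 9.26% of them had a smaller SD than OTP70, 9.86% a smaller one than PAC and 42.8% a smaller one than AT4G04370. A choice of genes for a steady difference favours a small spread. By size of normalized difference, among the 452 features with 1 gene that were tested, AT4G04370 ranked 14 and OTP70 ranked 35 from the highest, while PAC ranked 106 from the lowest.

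Other genes of organelle RNA metabolism were hardly represented by features of their own. Of 130 further genes on a list of PPR proteins, editing cofactors, intron splicing factors, organelle mTERF proteins, chloroplast ribonucleoproteins, ribonucleases and stability factors, 3 had a feature with 1 gene, and 2 of these could be tested. Another 8 lay only on features with several genes and were not read. The reference table gives no product names, so PPR genes known only by a locus number could not enter the list. In limma on the normalized values, 0 of the 2 tested genes rose and 0 fell at an adjusted p of 0.05, where 18.5% and 18.4% of all features did. As deposited, both fell, where 36.8% of all features did. Their normalized median difference of -0.72, against -0.038 over all features tested, is that of CRR21 at -1.51 and mTERF9 at 0.078, which lay on opposite sides of 0.

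CRR21, a PPR protein needed to edit the plastid ndhD transcript, was dim in recovery. It read 0.0282, 0.0318, 0.00948, 0.00609 and 0.00384 on recovery arrays 1, 2, 3, 4 and 6 and was listed at 0 on recovery array 5, while light-adapted arrays read between 0.0422 and 0.108 with a median of 0.0676. The groups did not overlap as deposited, which held for 27.9% of the features tested. On that scale the log2 difference was -2.55 ± 0.558 (SE, limma adjusted p = 0.00339), and 36.8% of all features were called lower. After normalization it was -1.51 ± 0.595, over 5 recovery arrays and 6 light-adapted arrays, and did not pass (limma adjusted p = 0.0675). With the array at 0 kept through a pseudocount it was -0.85 (limma adjusted p = 0.152). Its shift in place among the features was downward in 5 of 6 pairs.

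The gene of mTERF9 (AT5G55580), a chloroplast protein of the mitochondrial transcription termination factor family, read between 0.0497 and 0.132 on recovery arrays and between 0.129 and 0.319 on light-adapted arrays. Its groups overlapped, and the difference was 0.078 ± 0.365 after normalization (SE, limma adjusted p = 0.897) but -0.85 ± 0.314 as deposited (limma adjusted p = 0.0418), so its sign rested on the scaling. As deposited mTERF9 was lower in recovery in 6 of 6 pairs, while its place among the features moved up in 5 of 6. OTP85, an editing factor of ndhD, was above 0 on 2 recovery arrays, at 0.0454 and 0.00781, and on 3 light-adapted arrays, at 0.0172, 0.00827 and 0.00616, and was not tested. CRR21, mTERF9 and PAC were thus all lower in recovery as deposited, where the median log2 difference over all features tested was -0.82. After normalization the difference was -1.18 ± 0.204 for PAC and -1.51 ± 0.595 for CRR21 (SE), so both were still lower, while mTERF9 was at 0.078. CRR21, with the larger SE, did not pass, and PAC had been picked on this contrast. OTP70 and AT4G04370 were higher on each scale.

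**Figure D4:**
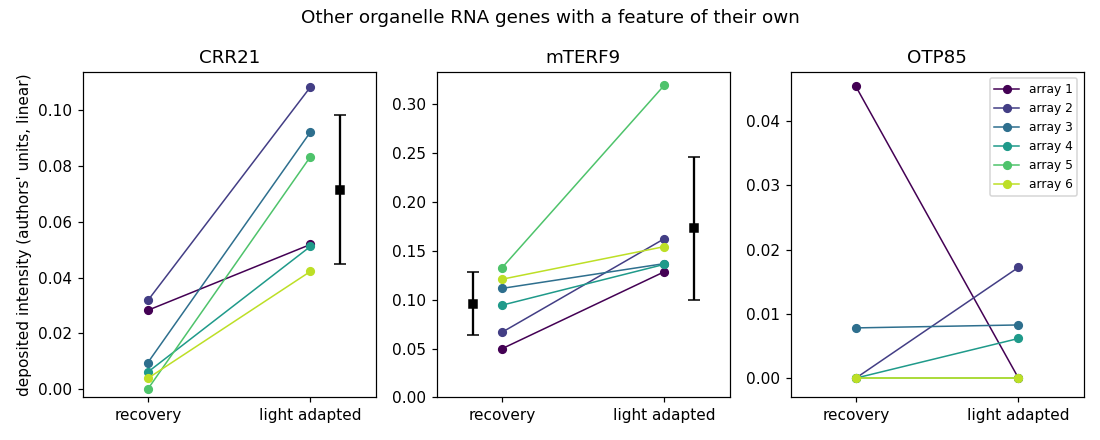
Deposited intensity (linear) of CRR21, mTERF9 and OTP85 on recovery arrays (left) and light-adapted arrays (right), with lines between arrays of the same number; squares with bars are the mean and SD where no array is listed at 0. CRR21 lies lower on every recovery array than on any light-adapted array, mTERF9 overlaps between the groups, and OTP85 is at or near 0 on most arrays.

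The profiles most like each gene were sought among 257 other features with 1 gene that were above 0 on all 12 arrays. Likeness was the root mean square difference between normalized log2 profiles, each centred on its own mean, over the 12 arrays. A near profile thus has a similar normalized difference by the way it was chosen, and nothing is read from that similarity. For OTP70 the nearest were AT1G13990 at 0.306, PSBW, which encodes a small subunit of photosystem II, at 0.327, and AT1G33250 at 0.411, against a median of 1.11 over the features compared. PSBW read 65.6 ± 10.6 in recovery and 17.8 ± 4.50 in light-adapted plants (SD, n = 6 each), with a normalized log2 difference of 1.48 ± 0.212 (SE). AT1G13990 read 2.54 ± 0.551 in recovery and 0.896 ± 0.320 in light-adapted plants (SD).

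The profiles nearest to AT4G04370 were less close. They were AT2G35390, a ribose-phosphate pyrophosphokinase gene, at 0.544, AT1G17160, a ribokinase gene, at 0.558, and CYN, the cyanase gene, at 0.567, against a median of 1.53. AT2G35390 read 0.276 ± 0.0557 in recovery and 0.0721 ± 0.0391 in light-adapted plants (SD, n = 6 each). The distance between AT4G04370 and OTP70 was 0.719, larger than any of these.

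PAC lay nearest to LHB1B2, an antenna gene of photosystem II, at 0.254, followed by AT4G22830 at 0.316 and AT3G09080 at 0.352, against a median of 1.03. LHB1B2 read 24.3 ± 10.4 in recovery and 39.7 ± 9.59 in light-adapted plants (SD, n = 6 each). Its normalized log2 difference was -1.28 ± 0.157 (SE), beside -1.18 for PAC, a nearness that follows from the choice by likeness on this scale. As deposited, the groups overlapped for LHB1B2 but not for PAC. PAC stood 1.55 from OTP70 and 2.00 from AT4G04370, farther than the median feature, as follows from differences of opposite direction.

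**Figure D5:**
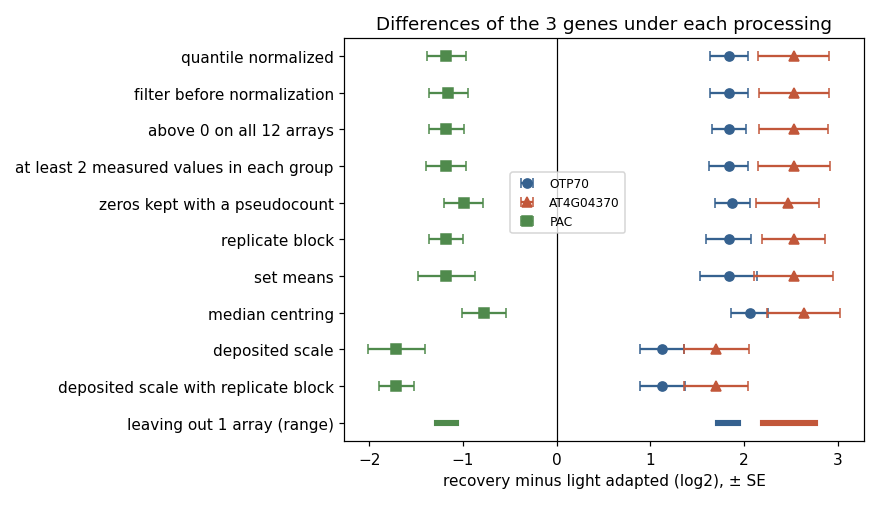
Log2 difference, recovery minus light adapted, of OTP70 (circles), AT4G04370 (triangles) and PAC (squares) under 10 ways of processing, with the SE as bars (set means are averages of arrays 1 and 2, 3 and 4, and 5 and 6), and in the lowest line the range over leaving out each of the 12 arrays in turn. No gene changes sign; the deposited scale lowers OTP70 to 1.13 and AT4G04370 to 1.70 and takes PAC to -1.71, and median centring takes PAC to -0.78.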

How the data were processed

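Expression was measured on 12 single-channel arrays. The authors deposited 1 table of intensity values, read here as linear because they are never negative and hold exact zeros. How they were scanned, background-corrected and normalized by the authors is not stated in these sources. Features were named from the platform annotation, updated through gene identifiers to TAIR10.1 (690 of 692 matched). No coordinates or sequences are printed. Values were taken to log2 with zeros as missing, quantile normalized, and features measured on 4 or more arrays of each group were kept. The comparison used limma 3.58.1 in R 4.3.3 (lmFit, eBayes, Benjamini-Hochberg over 2364 features, two-sided, adjusted p of 0.05). Array medians had an exact permutation test. The number of arrays limits the precision. The genes, lists and alternatives were chosen with earlier results of these data known. Named are the 3 genes, all list genes with a feature of their own, and the 3 nearest profiles of each gene. The name rule of the list read symbols and synonyms, as the table holds no product names. Same-numbered arrays deviated together (r of 0.108 to 0.193 over 1429 features, in all 6 pairs), so the numbers were taken to pair them, although no label says so. Alternatives were other scalings, filters, a pseudocount of 0.01, the replicate block, means of arrays 1 and 2, 3 and 4, and 5 and 6, and leaving out each array. Figures were drawn with matplotlib 3.10.9.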

Additional observations from a re-analysis of the deposited data

Results flagged for a closer look

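By Dixon's test, run on 6 genes, no array stood far apart from its group for OTP70 or PAC, on the linear deposited, the log2 deposited or the normalized scale. For AT4G04370, light-adapted array 4 stood apart on the log2 deposited scale, at -5.54, but not on the linear or the normalized scale. Light-adapted array 5 read 0.319 for mTERF9 as deposited, far above the other 5, and also stood apart on the log2 deposited scale, at -1.65, and on the normalized log2 scale, at -1.69. Recovery array 1 read 0.0454 for OTP85, which was at or near 0 on the other 5 recovery arrays. Chance alone gives such a value in about 5% of groups.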

How the results depend on the processing

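Under 21 alternative settings OTP70, AT4G04370 and PAC kept their direction, which describes genes picked on this contrast and supports nothing further. Leaving out 1 array at a time gave 1.72 to 1.94 for OTP70, 2.198 to 2.75 for AT4G04370 and -1.28 to -1.07 for PAC on the log2 scale. The differences moved by more than the replicate SD on the deposited scale, to 1.13, 1.70 and -1.71 in that order, with or without the replicate block. Median centring took PAC to -0.78. The block for same-numbered arrays left the normalized differences at 1.84, 2.53 and -1.18 and changed no call of these 3 genes, CRR21 or mTERF9. The count over all features was 873, 438 higher and 435 lower. It was 405 (199 higher and 206 lower) with arrays 1 and 2, 3 and 4, and 5 and 6 averaged, where fewer samples entered. As deposited it was 226 higher and 870 lower, with the block 236 and 895, and after median centring 619 and 345. Leaving out 1 array gave 795 to 865 in all.

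Of the list genes, 2 of the 2 tested fell as deposited, with or without the block, where 36.8% of all features did without it. After median centring 1 fell, where 14.6% of all features did, and 0 to 1 fell when 1 array was left out, where 389 to 428 of the 2364 features did. CRR21 passed after median centring (-1.64, limma adjusted p = 0.0427) and without recovery replicate 1 (-1.84, limma adjusted p = 0.0344) or 2 (-1.89, limma adjusted p = 0.0246). It did not pass with a pseudocount (-0.85, limma adjusted p = 0.152), with averaged arrays (-1.80, limma adjusted p = 0.161) or without recovery replicate 6 (-1.08, limma adjusted p = 0.149), and its adjusted p ran from 0.00339 to 0.161 over the alternatives. mTERF9 turned to -0.85 as deposited, with or without the block, and its sign also turned without light-adapted replicate 1 (-0.022), 3 (-0.023) or 4 (-0.023) and without recovery replicate 5 (-0.058) or 6 (-0.026), all values near 0, and it was 0.36 without light-adapted replicate 5. The cause of these changes was not tested. Filtering before normalizing, an alternative added after the data were seen, changed no call of the same 5 genes. The unit, background and ceiling of the intensities are unknown, so values near 0, such as those of AT4G04370 in light-adapted plants and of CRR21 in recovery, carry the most doubt in size.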

Other observations

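Genes lying within 4 places of the 3 genes on the chromosome were looked up after the values had been seen. AT4G25290, 2 genes from OTP70, read 0.391 ± 0.0571 in recovery and 0.232 ± 0.0601 in light-adapted plants (SD, n = 6 each), and its normalized log2 difference was 1.39 ± 0.243 (SE, limma adjusted p = 0.000771). AT2G48130, 2 genes from PAC, differed by 0.75 ± 0.247 (SE, limma adjusted p = 0.0392), with means of 0.0415 ± 0.0253 in recovery and 0.0424 ± 0.0334 in light-adapted plants (SD), so its deposited means differed by less than their SD. Of all features tested, 18.5% were called higher in recovery on the same scale, so nothing is read from the calls of AT4G25290 and AT2G48130. AT2G48090, 3 genes from PAC, was too often at 0 to be tested. No neighbour of AT4G04370 within that distance had a feature of its own.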
